A study of Mus musculus with 4 samples.

Results

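Collagens and laminins are the structural proteins of the extracellular matrix. The 53 genes described here, 42 collagens and 11 laminins, are those of 55 collagen and laminin symbols that were found in at least 20 cells, among 31053 genes listed and 16993 found in at least 20 cells. Just inside that limit were Col22a1 with 21 cells, Col24a1 with 24 and Col28a1 with 31, and just outside it Col6a4 with 10 and Col10a1 with 5. Single-cell RNA was read at the 3′ end from whole hippocampi of male C57BL/6 mice, a week after 2VO, in which both common carotid arteries were clamped for a time and released, or after sham surgery. The labels give the mice of both groups as 12 weeks old and the methods give a younger range. Each library came from 1 mouse, the tissue was dissociated with pronase, and no cell type was sorted. The library 2VO 1 was compared with sham 1 and sham 2, and 2VO 2 was not analysed here. With 1 library in the 2VO group, each test assumes that 2VO libraries vary as the sham libraries do. Its p rests on the spread between the sham mice only, shared over the genes of a class to a degree that differs between classes.

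A collagen molecule is a triple helix of 3 chains. Fibrillar collagens (types I, III, V and others) form the fibres of connective tissue, which in the brain lie mainly in the meninges and around large vessels. Type IV collagen forms the sheet of every basement membrane, the layer on which endothelial cells sit and in which pericytes and smooth muscle cells are embedded. Laminins, each made of an alpha, a beta and a gamma chain, form the other sheet of that layer, and the alpha chain sets which receptors bind. Other collagens bind to fibrils, form beaded filaments (type VI), carry a membrane anchor, or release fragments such as endostatin from type XVIII.

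Promoter sequences of 4 members are shown, as the results turn on the type IV pair and on the fibrillar genes Col1a2 and Col3a1. Each runs from 250 bases before to 50 bases after the start that RefSeq gives on GRCm38.p6. Col4a1 (minus strand, chr8:11312777-11313076) and Col4a2 (plus strand, chr8:11312555-11312854) are read away from each other from adjoining starts. The capitals in both mark the 78 bases that lie in both windows, written on opposite strands. In the windows of Col1a2 (plus strand, chr6:4505368-4505667) and Col3a1 (plus strand, chr1:45311288-45311587), capitals mark CCAAT or TATAAA on either strand.
Col4a1: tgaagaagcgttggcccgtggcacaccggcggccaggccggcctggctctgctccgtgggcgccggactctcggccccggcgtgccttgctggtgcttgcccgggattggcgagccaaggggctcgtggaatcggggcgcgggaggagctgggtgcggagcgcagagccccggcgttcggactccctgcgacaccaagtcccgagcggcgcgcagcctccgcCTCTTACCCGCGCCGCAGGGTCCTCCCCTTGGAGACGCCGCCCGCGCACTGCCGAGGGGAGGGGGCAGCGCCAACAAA
Col4a2: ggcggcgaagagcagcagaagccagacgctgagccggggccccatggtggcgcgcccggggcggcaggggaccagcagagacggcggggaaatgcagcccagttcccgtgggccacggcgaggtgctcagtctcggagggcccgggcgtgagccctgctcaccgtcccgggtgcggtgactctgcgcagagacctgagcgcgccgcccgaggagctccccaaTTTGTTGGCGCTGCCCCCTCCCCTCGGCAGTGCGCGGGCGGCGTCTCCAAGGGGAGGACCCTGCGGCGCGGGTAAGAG
Col1a2: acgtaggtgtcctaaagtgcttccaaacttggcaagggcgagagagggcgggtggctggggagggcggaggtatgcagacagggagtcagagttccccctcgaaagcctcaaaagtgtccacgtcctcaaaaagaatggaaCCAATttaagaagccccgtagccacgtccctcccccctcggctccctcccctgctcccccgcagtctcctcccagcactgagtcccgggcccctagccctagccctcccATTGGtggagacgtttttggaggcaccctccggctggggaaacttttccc
Col3a1: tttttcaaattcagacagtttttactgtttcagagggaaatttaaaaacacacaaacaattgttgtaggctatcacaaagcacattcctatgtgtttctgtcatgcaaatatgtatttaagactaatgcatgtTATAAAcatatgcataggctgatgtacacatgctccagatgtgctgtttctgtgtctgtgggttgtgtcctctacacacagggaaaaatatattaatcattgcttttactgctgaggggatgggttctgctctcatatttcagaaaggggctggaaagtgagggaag

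Both type IV windows were rich in G and C, at 74% for Col4a1 and 73.7% for Col4a2, with 37 and 33 CG pairs. The Col1a2 window held 61% G and C with 13 CG pairs, and the Col3a1 window 37.7% with 0. Each window was searched on both strands for CCAAT, known as the CCAAT box. It was searched in the same way for GGGCGG, known as the GC box, and for the motif TATAAA, known as the TATA box, and none of these motifs contains another. CCAAT occurred 1 time in each of the Col4a1 and Col4a2 windows, 2 times in Col1a2 and 0 times in Col3a1, and GGGCGG 1, 3, 2 and 0 times in this order of genes. TATAAA was found in the Col3a1 window alone of these 4, 1 time. RefSeq windows were matched for 38 of the 53 members, 42 windows in all. CCAAT was in 31.0% of them and in 37.4% of all 32851 windows, GGGCGG in 59.5% and 35.7%, and TATAAA in 9.52% and 13.6%. These matches describe letters and show no binding.

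The filter of at least 650 detected genes kept 3912 cells of 2VO 1, 5109 of sham 1 and 5126 of sham 2. Their median depth was 2311 molecules (UMIs) per cell in 2VO 1, 8191 in sham 1 and 5249 in sham 2, so the 2VO library was the shallowest. Pairs of libraries shared 7 to 10 barcodes. Cell classes were rebuilt by clustering without the members, and named from fixed markers. Vascular and leptomeningeal cells (VLMCs, the fibroblasts of the meninges and large vessels) numbered 32 in 2VO 1, 44 in sham 1 and 120 in sham 2. Pericytes (PERs) numbered 155, 114 and 304, vascular smooth muscle cells (VSMCs) 142, 99 and 257, and endothelial cells (ECs) 1186, 1033 and 1612 in this order of libraries. All 8 listed markers of VLMCs, PERs, VSMCs and ECs were found in their own class in each library. Levels are CPM, the summed UMIs of a class in 1 library scaled to a common total with edgeR's TMM factors of that class. The total counted only genes that passed edgeR's filter on low counts in that class, 1736 in fenestrated-like ECs against 12128 in ECs. CPM therefore ran higher in classes with few cells, where few genes passed, which bears on comparisons of CPM between classes. As the assay reads 3′ ends, such levels do not grow with transcript length, but genes can still differ in how well they are captured.

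Most members had their highest mean level in a vascular class. Of the 53, 21 were highest in VLMCs, 11 in PERs, 2 in VSMCs and 1 in ECs, together 35. In 16 of the 21, 6 of the 11 and all 3 of the VSMC and EC genes, each library's level in that class was above each library's level in the next class. The other 18 were highest in ependymal cells (EPNs, 6), choroid plexus epithelial cells (CPECs, 3), oligodendrocyte precursors (OPCs, 3), Cajal-Retzius neurons (2), glutamatergic neurons (GLUTNs, 2), astrocytes (ASTs, 1) and macrophages (1). These orders are descriptions of rebuilt classes and were not tested. With cells weighted equally instead, 50 of the 53 kept their top class, and the exceptions were Col19a1, Col27a1 and Col2a1.

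The fibrillar collagens set VLMCs apart. Their summed level there was 2273 CPM in 2VO 1, against 4818 and 2978 CPM in sham 1 and sham 2, and 411, 649 and 719 CPM in PERs, 184, 273 and 182 CPM in VSMCs and 34.1, 7.71 and 14.9 CPM in ECs, in the same order of libraries. Col1a1, the main chain of type I collagen (chr11:94936224-94953042, plus strand), had 703 CPM in 2VO 1, against 1650.0 and 1033 CPM in sham 1 and sham 2 in VLMCs. VLMCs were 1.39% of all kept cells and held 89.4% of the 979 Col1a1 UMIs. No other class was near that level: the next by mean, Cajal-Retzius neurons, had 0, 0 and 55.8 CPM.

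Col1a2, the partner chain of type I (chr6:4504814-4541544, plus strand), was spread more widely. It had 1149 CPM in 2VO 1, against 2114 and 1388 CPM in sham 1 and sham 2 in VLMCs, 204, 267 and 282 CPM in PERs and 107, 191 and 109 CPM in VSMCs, each in this order of libraries. VLMCs held 40.5% of its 2913 UMIs, CPECs 24.5% and VSMCs 13.3%. So PERs, VSMCs and CPECs carried the alpha 2 chain almost without the alpha 1 chain. PERs held 63, 90 and 202 Col1a2 UMIs beside 1, 0 and 15 of Col1a1, and VSMCs 58, 143 and 185 beside 0, 0 and 1. CPECs held 266, 360 and 88 Col1a2 UMIs beside 2, 3 and 0 of Col1a1. In VLMCs the ratio of Col1a1 to Col1a2 UMIs was 0.612 in 2VO 1, 0.781 in sham 1 and 0.744 in sham 2.

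Col3a1, the fibrillar chain of pliable tissues such as vessel walls (chr1:45311538-45349706, plus strand), had 215 CPM in 2VO 1, against 717 and 290.2 CPM in sham 1 and sham 2 in VLMCs and 48.5, 157 and 222 CPM in PERs. VLMCs held 42.9% and PERs 32.9% of its 690 UMIs, and the levels of both classes overlapped. The type V chains, which set fibril width, were lower. In VLMCs Col5a1 had 49.6, 94.9 and 86.6 CPM and Col5a2 66.1, 142 and 91.0 CPM, while Col5a3 was highest in EPNs, at 118, 85.0 and 127 CPM. Col27a1 had about the same level in PERs, 116, 101 and 89.3 CPM, as in microglia, 94.1, 104 and 95 CPM.

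Type IV collagen was highest in the mural cells. The 6 chains together had 1013 CPM in 2VO 1, against 1749 and 2215 CPM in sham 1 and sham 2 in PERs. The sums were 887, 1376 and 895 CPM in VSMCs, 546, 1302 and 1089 CPM in VLMCs and 563, 1046 and 893 CPM in ECs. Col4a1 (chr8:11198423-11312826, minus strand) and Col4a2 (chr8:11312805-11449287, plus strand), whose products join in the common type IV molecule, made up most of each sum.

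For Col4a1 the order of class means was PERs (547, 978 and 1352 CPM in 2VO 1, sham 1 and sham 2), VSMCs (468, 639.9 and 459.9), ECs (329, 559.6 and 540.2) and VLMCs (265, 554 and 537). For Col4a2 it was PERs (256, 575 and 679.6 CPM), VSMCs (303, 623 and 345), ECs (227, 479 and 349) and VLMCs (124, 311 and 258). Neighbours in both orders overlapped between libraries. As the most numerous vascular class, ECs held 55.0% of the 11802 Col4a1 UMIs and 57.7% of the 8175 Col4a2 UMIs. Over the 14 classes the mean levels of the pair followed each other closely (Pearson r = 0.98, as a description over classes that share libraries). The ratio of Col4a1 to Col4a2 UMIs was 2.14 in 2VO 1, 1.70 in sham 1 and 1.99 in sham 2 in PERs, and 1.45, 1.17 and 1.55 in ECs.

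Within the ECs, type IV was highest in fenestrated-like ECs, a group of 27, 21 and 15 cells in 2VO 1, sham 1 and sham 2 named from fixed markers. There Col4a1 had 1006 CPM in 2VO 1, against 2097 and 2493 CPM in sham 1 and sham 2, and Col4a2 599, 1623 and 1843 CPM. Fenestrated-like ECs also had Col13a1, a collagen with a membrane anchor, at 383, 748 and 867 CPM, and Col15a1, which binds basement membranes to fibrils, at 335, 511 and 325 CPM. Levels of Col4a1 in capillary-like ECs were 371, 646 and 626 CPM, in arterial-like ECs 359, 674 and 653 CPM and in venous-like ECs 271, 447 and 342 CPM. In CPM each fenestrated-like level was above every one of these. With cells weighted equally (mean scaled count per cell), this held for fenestrated-like ECs of sham 1 and sham 2, at 16.7 and 19.9, but not of 2VO 1, at 5.54. That level was below arterial-like ECs of sham 1 and sham 2 (7.52 and 6.79) and capillary-like ECs of both (6.36 and 5.86). It was above the arterial-like and capillary-like levels of 2VO 1 (3.98 and 3.82) and every venous-like level.

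**Figure D1:**
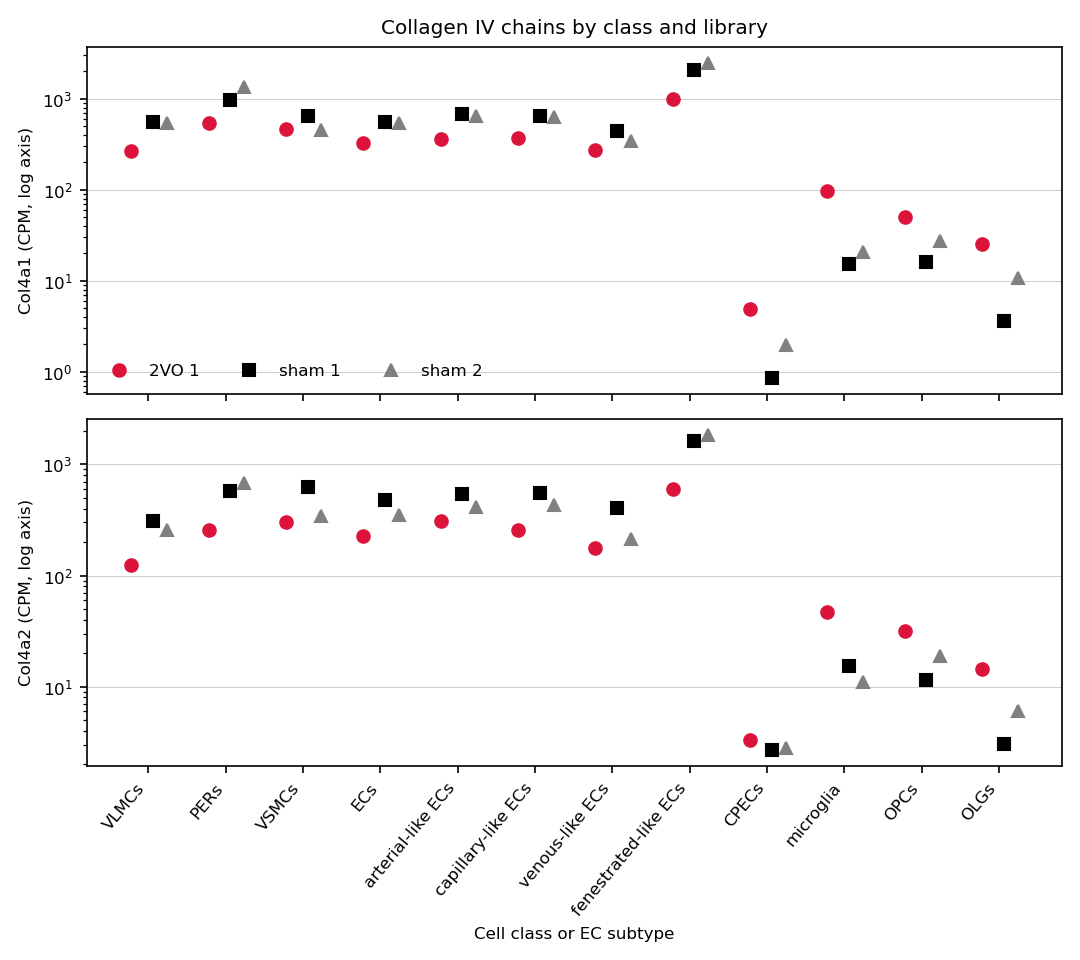
CPM of Col4a1 and Col4a2 (vertical log axis) in each of the 3 libraries, for VLMCs, PERs, VSMCs, ECs, 4 groups of ECs, CPECs, microglia, OPCs and OLGs (horizontal axis). Each point is 1 library. Vascular classes lie far above OLGs, and in fenestrated-like ECs, PERs, ECs and VLMCs the 2VO point is below both sham points.

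The 4 minor type IV chains had other homes. Col4a3 and Col4a4, which build the type IV of kidney filters and some epithelia and whose starts adjoin on chromosome 1, were highest in PERs, at 55.0, 80.0 and 69.8 CPM and 74.4, 44.5 and 57.2 CPM. CPECs followed at 20.2, 15.1 and 18.2 CPM and 33.3, 26.0 and 28.0 CPM and held 78.1% of the Col4a3 UMIs and 83.6% of the Col4a4 UMIs. Exons of Col4a3 and of C430014B12Rik on the opposite strand overlap, so its counts are less certain if strand was not used. Col4a5 and Col4a6, adjoining genes on chromosome X, were highest in VLMCs. Col4a5 had 82.7 CPM in 2VO 1, against 311 and 167 CPM in sham 1 and sham 2, and Col4a6 74.4, 127 and 126 CPM.

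Type VI collagen, the beaded filament found around many cells, was a VLMC group as well. The 5 measured chains summed to 239.7 CPM in 2VO 1, against 601 and 353 CPM in sham 1 and sham 2 in VLMCs and to at most 38.8 CPM in PERs. Col6a1 had 116, 369 and 182 CPM in VLMCs, Col6a2 41.3, 132 and 104 CPM and Col6a3 82.7, 100.2 and 67.1 CPM. Apart from these stood Col6a5, at 207, 107 and 143 CPM in EPNs, where 9, 72 and 80 cells held 97.4% of its UMIs. Col6a6 was the gene highest in ECs, with 82.8% of its UMIs there, and in venous-like ECs it had 37.0, 22.8 and 47.1 CPM.

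Several collagens that bind fibrils or basement membranes were high in VLMCs. Col12a1, a fibril-associated collagen, had 198 CPM in 2VO 1, against 295 and 381 CPM in sham 1 and sham 2, and Col15a1 had 149, 427 and 318 CPM. Col18a1, the source of endostatin, had 265, 464 and 232 CPM in VLMCs and 184, 129 and 203 CPM in VSMCs, so the library with the lowest VLMC level was above the highest in VSMCs. Col13a1 had 239.7, 211 and 128 CPM in VLMCs, Col23a1 116, 142 and 165 CPM and Col16a1 74.4, 100.2 and 110.5 CPM. Across the 14 classes, Col13a1 (r = 0.94) and Col6a1 (r = 0.93) followed Lama1 most closely, and Lama1 (r = 0.89) was the closest to Col1a1. These genes share the VLMC sums, and the r values describe 14 class means.

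Outside the vessels, epithelial cells had collagens of their own. Col9a3, a chain of the fibril-associated type IX known from cartilage, was the most counted member with 27554 UMIs. It had 579 CPM in 2VO 1, against 453 and 562 CPM in sham 1 and sham 2 in CPECs and 169, 417 and 224 CPM in OPCs. Its exons overlap 234 bases of Tcfl5 exons on the opposite strand. Col8a1, a chain of the short network collagen VIII, had 176, 162 and 129.8 CPM in CPECs, which held 94.8% of its 6867 UMIs, and its partner Col8a2 had 118, 113 and 102 CPM in EPNs and 75.9, 53.5 and 46.9 CPM in CPECs. Col17a1, an epithelial collagen with a membrane anchor, was at 15.0, 12.4 and 11.0 CPM in CPECs, with 97.4% of its UMIs there. Among glia and neurons, Col11a2 had 131, 64.5 and 104 CPM in ASTs. Col25a1, a membrane collagen of neurons, had 27.5, 42.2 and 27.4 CPM in GLUTNs, though 74.7% of its UMIs lay in cells left unnamed. No class of GABAergic neurons was named, and a cluster of 279 cells with Gad2, Slc17a7 and Npy among its leading genes was left unnamed. With finer clusters (resolution 2.0), Col25a1 was among the leading genes of a cluster of 99 GABAergic neurons.

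Laminin chains divided the 4 vascular classes by their alpha chains. Of the alpha chain UMIs in VLMCs, Lama1 made up 45.1%, 39.9% and 37.1% in 2VO 1, sham 1 and sham 2, and Lama2 29.6%, 39.3% and 41.7%. In PERs the main alpha chains were Lama2 (51.4%, 56.7% and 61%) and Lama4 (42.8%, 41.2% and 36.1%). Lama5 made up 78.4%, 76.8% and 83.3% in VSMCs, and ECs shared their alpha UMIs between Lama4 (46.3%, 45.1% and 38.1%) and Lama5 (44.3%, 48.7% and 51.9%). Each class thus had its own leading alpha chains, with Lama1 in fibroblasts, Lama2 in fibroblasts and pericytes, Lama4 in pericytes and endothelium, and Lama5 in muscle and endothelium.

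By level, Lama1 (chr17:67697259-67822647, plus strand) had 265 CPM in 2VO 1, against 343 and 297 CPM in sham 1 and sham 2 in VLMCs, which held 78.3% of its UMIs. Lama2 (chr10:26980036-27619758, minus strand), the muscle and vessel chain lost in a congenital muscular dystrophy, had 404, 400.2 and 547 CPM in PERs and 174, 337 and 334 CPM in VLMCs, and it was also found in ASTs at 72.3, 84.7 and 109.9 CPM. Lama4 (chr10:38965515-39110188, plus strand) had 336, 291 and 324 CPM in PERs, 107, 179 and 162 CPM in VLMCs and 101, 85.0 and 66.7 CPM in ECs. Lama5 (chr2:180176373-180225859, minus strand) had 241, 199 and 153 CPM in VSMCs and 96.9, 91.7 and 91.0 CPM in ECs. For Lama1, Lama2, Lama4 and Lama5 every library of the leading class was above every library of the next. Exons of Lama2 overlap an antisense gene over 631 bases.

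Among beta chains, Lamb2 made up 99.3%, 98.9% and 99.6% of beta UMIs in VSMCs, 97.7%, 95.8% and 97.2% in ECs and 83.1%, 75.4% and 69.9% in PERs. Lamb1 took a larger share in VLMCs (50.0%, 62.2% and 46.8%) and led in CPECs (74.5%, 75.5% and 67.6%). The level of Lamb2 (chr9:108479736-108490530, plus strand) was 503, 475 and 435 CPM in VSMCs, 398, 374 and 398 CPM in PERs and 236, 237 and 234 CPM in ECs, and its order over these classes was the same in each library. Lamc1, the common gamma chain (chr1:153218922-153332786, minus strand), had 696, 792 and 878 CPM in PERs and 281, 601 and 303 CPM in VLMCs. The other gamma chain, Lamc3, made up 42.4%, 30.7% and 49.8% of gamma UMIs in VLMCs and 30.2%, 24.8% and 29.2% in PERs, at 301, 261 and 363 CPM in PERs. Lamb3, a beta chain of epithelia, was nearly absent from the vascular classes, with at most 1 UMI in a library.

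**Figure D2:**
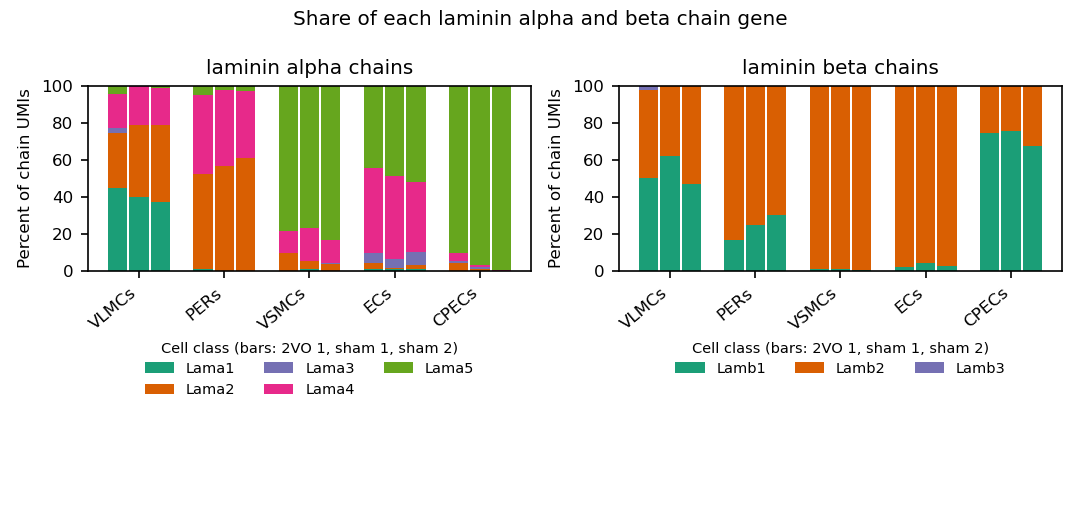
Share of alpha and of beta laminin chain UMIs (vertical axis, percent) taken by each chain in VLMCs, PERs, VSMCs, ECs and CPECs, with a bar for each library. Lama5 takes 76.8% to 83.3% of alpha UMIs in VSMCs, and Lamb2 95.8% to 97.7% of beta UMIs in ECs.

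Further members were low or rested on few cells. Col11a1, a fibrillar chain of cartilage, had 105, 57.4 and 68.8 CPM in OPCs, which held 68.5% of its UMIs, and 287, 30.4 and 186 CPM in Cajal-Retzius neurons, on 55 UMIs in all. Col9a2 had 82.7, 73.8 and 129.9 CPM and Col26a1 49.6, 163 and 71.5 CPM in VLMCs, where each led by mean. Col7a1, the anchoring fibril collagen of skin, had 64.7, 44.5 and 36.3 CPM in PERs. In their leading class Col28a1 (PERs, 12.9, 2.96 and 14.0 CPM), Col22a1 (VLMCs, 16.5, 5.27 and 26.0 CPM), Col14a1 (macrophages, 17.9, 0 and 49.9 CPM), Col20a1 (OPCs, 17.5, 5.31 and 5.0 CPM) and Col9a1 (OPCs, 2.83, 15.3 and 8.75 CPM) were low. So were Col24a1 (OPCs, 4.53, 1.48 and 0.417 CPM), Col19a1 (GLUTNs, 0, 10.5 and 2.93 CPM) and Col2a1 (Cajal-Retzius neurons, 16.9, 0 and 0 CPM). The macrophage level of Col14a1 rested on 6 of its 617 UMIs, and its leading class changed when cells of at least 200 genes were kept. Col14a1 was also found in arterial-like ECs, with a mean scaled count per cell of 0.628, 0.388 and 0.348 in 2VO 1, sham 1 and sham 2. Lama3 and Lamb3, chains of epithelial laminin, were each highest in EPNs, at 0, 14.5 and 21.8 CPM and 0, 15.7 and 11.8 CPM, and in fenestrated-like ECs Lama3 had 287, 91.2 and 515 CPM.

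The comparison of 2VO with sham asks whether matrix genes differ in their cells of origin a week after the occlusion. In VLMCs, 30 of the 53 members passed the filter on low counts and edgeR called 0, a call being a fold over 1.5 with an adjusted p under 0.05 (9 members had a p under 0.05 before adjustment, against 0 by DESeq2, which also called 0). Over all 4911 genes tested in VLMCs, 0.937% were called, 0.896% higher and 0.0407% lower. Of the 30 members, 27 had a log2 difference below 0, with a median of -0.71 against -0.03 over all genes, and in 24 the 2VO level was below both sham levels, which held for 37.4% of all genes. The adjusted test thus called none of them, and the counts describe the direction in 1 2VO library with 32 such cells.

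Among the 8 most counted members of VLMCs, the fibrillar and type IV genes were lower in 2VO 1 than in both sham libraries. For Col1a1 (levels above) the log2 difference was -0.93 ± 0.42 (SE, adjusted p = 0.61, edgeR), and for Col1a2 -0.60 ± 0.41 (adjusted p = 0.80). Col3a1 differed by -1.20 ± 0.51 (adjusted p = 0.56) and Col4a1 by -1.04 ± 0.41 (adjusted p = 0.47). None passed, and the sham libraries were themselves apart, as with Col3a1 at 717 and 290.2 CPM. Col15a1 differed by -1.31 ± 0.45 (adjusted p = 0.31), Col12a1 by -0.78 ± 0.42 (0.73), Lama2 by -0.95 ± 0.43 (0.60) and Lamc1 by -0.66 ± 0.46 (0.80). For each of these 8 the 2VO level was below both sham levels. Over all genes of VLMCs, 37.4% were below both and 35.9% above both. Outside that rule, Col4a2 was singled out after its values were seen: it differed by -1.18 ± 0.45 (adjusted p = 0.43), and with finer clusters (resolution 2.0) by -1.74 with an adjusted p of 0.043, where 2.03% of all genes were called.

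The VLMC sum of 2VO 1 also held more of other cells' markers. The 8 markers of oligodendrocytes (OLGs) summed to 6696, 548 and 1516 CPM in VLMCs of 2VO 1, sham 1 and sham 2, and the 8 EC markers to 2215, 901 and 810.0 CPM. The VLMC markers themselves summed to 5175, 6447 and 6426 CPM, a log2 ratio of -0.31 for 2VO 1 over the sham mean. Of the 30 members, 25 lay below that ratio. The part of these markers in the lower collagen levels was not tested. In sums over cells, fewer strongly expressing cells and less RNA per cell cannot be told apart.

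**Figure D3:**
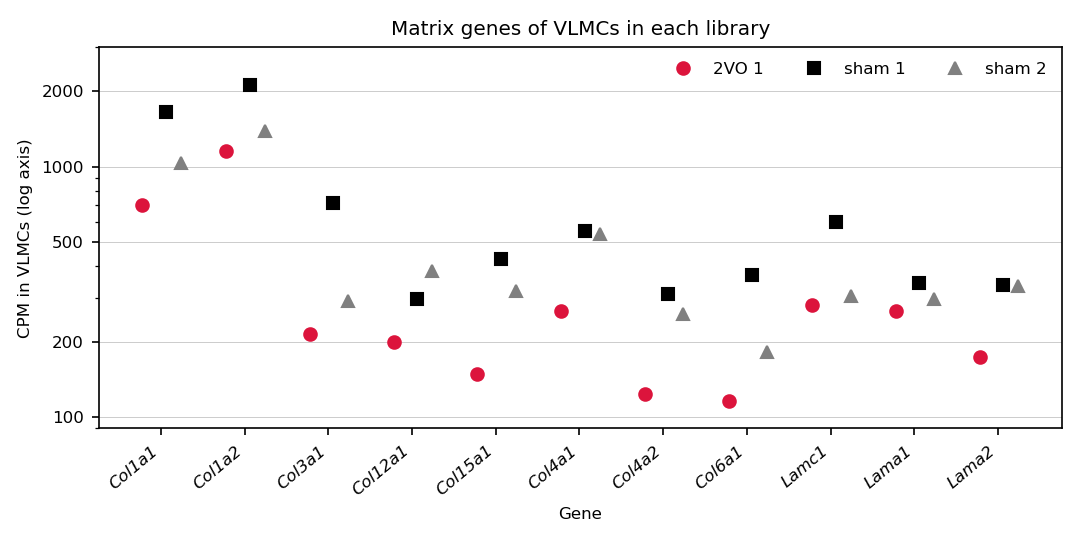
CPM (vertical log axis) of 11 collagen and laminin genes in VLMCs (horizontal axis), 1 point for each of 2VO 1, sham 1 and sham 2. The genes shown are the 8 most counted members and, outside that rule, Col4a2, Col6a1 and Lama1. The 2VO point is below both sham points for each, as it was for 24 of the 30 members tested and for 37.4% of all genes. Examples are Col1a2 at 1149 against 2114 and 1388 CPM and Lama2 at 174 against 337 and 334 CPM, and 0 of the genes passed the test.

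In PERs, 21 members were tested and edgeR called 0 (6 with an unadjusted p under 0.05, and DESeq2 called 0, with 4 under 0.05), as it did for all 7256 genes, 0% called. The median log2 difference of the 21 was -0.24 against -0.01 over all genes. The 2VO level was below both sham levels in 10 and above both in 7, shares of 39.5% and 39.3% over all genes. So in PERs the members went both ways.

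Col4a1 had 547 CPM in 2VO 1, against 978 and 1352 CPM in sham 1 and sham 2, a log2 difference of -1.09 ± 0.35 (SE, adjusted p = 0.32, edgeR). Col4a2 had 256 CPM in 2VO 1, against 575 and 679.6 CPM in sham 1 and sham 2, a difference of -1.30 ± 0.30 (adjusted p = 0.32). Both were lower in 2VO 1 than in both sham libraries and did not pass. The leading laminins lay closer to the sham levels: Lama2 differed by -0.24 ± 0.31 (adjusted p = 0.72), Lama4 by 0.13 ± 0.27 (0.82), Lamb2 by 0.04 ± 0.27 (0.95), Lamc1 by -0.26 ± 0.28 (0.66) and Lamc3 by -0.06 ± 0.31 (0.93). Col1a2 differed by -0.43 ± 0.27 (adjusted p = 0.49).

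Other settings gave calls in PERs. Removing the cells marked as doublets took no PER from 2VO 1, which kept its 155. It left 110 of 114 PERs in sham 1 and 298 of 304 in sham 2, so only the sham sums changed. With these removed, 6 of the members were called: Col3a1 (-2.13, adjusted p = 9.0e-07), Col5a2 (-2.71), Col4a2 (-1.44, adjusted p = 1.2e-04), Col4a1 (-1.25, adjusted p = 0.003) and Lamb1 (-1.03) fell, and Col8a1 (1.20) rose. In that fit 392 of 7032 genes were called higher and 263 lower, 9.31% in all. Without a filter on low counts Col3a1, Col5a2 and Col4a2 were called lower, with 1.78% of all genes called. Of these, Col3a1, Col5a2, Col8a1 and Lamb1 are named for that reason and not by the rule on counts. In PERs with all cells, Col3a1 had 48.5, 157 and 222 CPM, Col5a2 9.71, 68.2 and 51.6 CPM, Lamb1 80.9, 122 and 172 CPM and Col8a1 136, 56.3 and 54.4 CPM. The 2VO level was outside the sham levels for each, but these genes were picked from fits of the same counts. Over all genes of PERs, 39.5% were below both sham levels and 39.3% above both.

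Cells with a UMI gave the same order at matched depth. Col4a1 was found in 56.8% (48.6% to 64.7%) of PERs of 2VO 1 (exact Clopper-Pearson 95% interval), against 81.6% (73.2% to 88.2%) in sham 1 and 85.9% (81.4% to 89.6%) in sham 2, at median depths of 1721, 2451 and 2082 UMIs. Thinned to 1000 UMIs per cell, the shares were 40.3%, 55.4% and 63.0%. For Col4a2 they were 31.0%, 69.3% and 69.4%, and 21.5%, 43.8% and 48.8% when thinned. In OLGs, which should lack the gene, 6.30%, 2.90% and 4.02% of cells held a Col4a1 UMI at medians of 2277, 11540 and 7989 UMIs, and 2.94%, 0.452% and 0.914% when thinned. For Col4a2 the OLG shares were 4.20%, 2.77% and 2.29%, and 2.00%, 0.0645% and 0.274% when thinned. The PER shares of both genes were above the OLG shares in each library. Intervals cover counting error only, as molecules of 1 library share their cells.

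PERs of 2VO 1 held EC markers at 1381, 308 and 462 CPM in 2VO 1, sham 1 and sham 2 and OLG markers at 8078, 19265 and 3370.1 CPM, and their own 8 markers at 21831, 27109.5 and 36999 CPM, a log2 ratio of -0.55. Of the 21 members, 7 lay below that ratio. A cluster of 11, 15 and 140 cells that carried PER and EC markers together was left unnamed. With that cluster added to the PERs, an alternative chosen once the data had been seen, the members had a median of 0.19. What these markers add to the values was not tested.

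In VSMCs, 19 members were tested and edgeR called 0 (3 with an unadjusted p under 0.05, DESeq2 0 and 0), against 0.415% of 8682 genes. The median log2 difference was 0.06. Lamb2, the highest laminin there, had 503 CPM in 2VO 1, against 475 and 435 CPM in sham 1 and sham 2, a difference of 0.15 ± 0.24 (SE, adjusted p = 0.80, edgeR), and Lama5 one of 0.46 ± 0.26 (0.43). Col4a1 differed by -0.23 ± 0.27 (0.71), with 2VO 1 between the sham levels, and Col4a2 by -0.67 ± 0.32 (0.36), with 2VO 1 below both. Lamc1 (-0.06 ± 0.30, adjusted p = 0.94), Col18a1 (0.13 ± 0.29, 0.86), Col1a2 (-0.47 ± 0.34, 0.53) and Col4a5 (0.06 ± 0.32, 0.94) make up the rest of the 8 most counted. The VSMC markers summed to 29779, 44592 and 47980.4 CPM in 2VO 1, sham 1 and sham 2, a log2 ratio of -0.64, and 3 of the 19 members lay below that ratio.

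In ECs, 24 members were tested and edgeR called 0 (6 with an unadjusted p under 0.05, and DESeq2 called 0, with 2 under 0.05), against 2.38% of 12128 genes, 2% higher and 0.388% lower. The median log2 difference of the 24 was 0.23. The 2VO level was above both sham levels in 14 members and below both in 5, shares of 40.3% and 39.6% over all genes. The type IV pair was among the 5.

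Col4a1 had 329 CPM in 2VO 1, against 559.6 and 540.2 CPM in sham 1 and sham 2, a log2 difference of -0.74 ± 0.19 (SE, adjusted p = 0.085, edgeR), and Col4a2 227 CPM in 2VO 1, against 479 and 349 CPM in sham 1 and sham 2, a difference of -0.86 ± 0.24 (adjusted p = 0.097). Col18a1 went the other way, at 28.0, 14.4 and 13.9 CPM, with a difference of 0.99 ± 0.26 (adjusted p = 0.088). All 3 had an adjusted p under 0.1, and without a filter on low counts all 3 were called, among 7.79% of all genes. The laminins were nearer to the sham levels: Lamb2 differed by 0.00 ± 0.18 (adjusted p = 1.00), Lama5 by 0.08 ± 0.17 (0.81), Lama4 by 0.42 ± 0.20 (0.27), Lamc1 by -0.13 ± 0.28 (0.82) and Lamc3 by -0.28 ± 0.30 (0.63). A Col4a1 UMI was found in 52.9%, 71.4% and 70.5% of ECs of 2VO 1, sham 1 and sham 2, and in 30.6%, 38.9% and 41.1% when thinned. EC markers summed to 16440.1, 18144 and 19724 CPM, a log2 ratio of -0.20, and 6 of the 24 members lay below it.

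Venous-like ECs numbered 129 of 1186 ECs in 2VO 1, 50 of 1033 in sham 1 and 55 of 1612 in sham 2. A change in the mix of types can move the EC sum, and its part was not tested. ECs left without a type numbered 433, 478 and 858 in this order of libraries. In them 12 members were tested and 0 called by edgeR, against 3 of 10376 genes, with 3 members at an unadjusted p under 0.05. Split by type, members were called in arterial-like ECs alone of the 4 named groups of ECs. There 12 members were tested, and 2 were called higher and 1 lower, against 1.29% and 0.46% of 8695 genes. Col18a1 rose to 151 CPM in 2VO 1, against 59.3 and 67.8 CPM in sham 1 and sham 2 (log2 difference 1.25 ± 0.27, SE, adjusted p = 0.002, edgeR). Lama4 rose to 108 CPM in 2VO 1, against 61.9 and 44.5 CPM in sham 1 and sham 2 (1.04 ± 0.30, adjusted p = 0.047). Col4a1 fell to 359 CPM in 2VO 1, against 674 and 653 CPM in sham 1 and sham 2 (-0.89 ± 0.24, adjusted p = 0.032). With cells marked as doublets removed, and with DESeq2, 0 of these were called, the adjusted p for the 3 being 0.42 to 0.54 without doublets and 1 by DESeq2. Removing marked doublets left 148 of 149 arterial-like ECs in sham 1 and all of them in 2VO 1 and sham 2. In the fit with all cells the spread was largely shared over genes, with median total degrees of freedom of 86.3. In capillary-like ECs (9 tested, 3.6% of all genes called), Col4a1 differed by -0.78 ± 0.36 and Col4a2 by -0.95 ± 0.35. In venous-like ECs (8 tested, 3.05%) they differed by -0.54 ± 0.37 and -0.82 ± 0.36, and in fenestrated-like ECs (9 tested, 0.864%) by -1.19 ± 0.48 and -1.53 ± 0.50. The 3 groups gave 0 calls by edgeR, with 2, 1 and 2 members in this order under 0.05 before adjustment, and 0 calls by DESeq2. In each of the 4 groups the 2VO level of Col4a1 and Col4a2 was below both sham levels, which held for 37%, 37.7%, 33.1% and 34.8% of all genes in arterial-like, capillary-like, venous-like and fenestrated-like ECs. A difference between the groups was not tested.

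**Figure D4:**
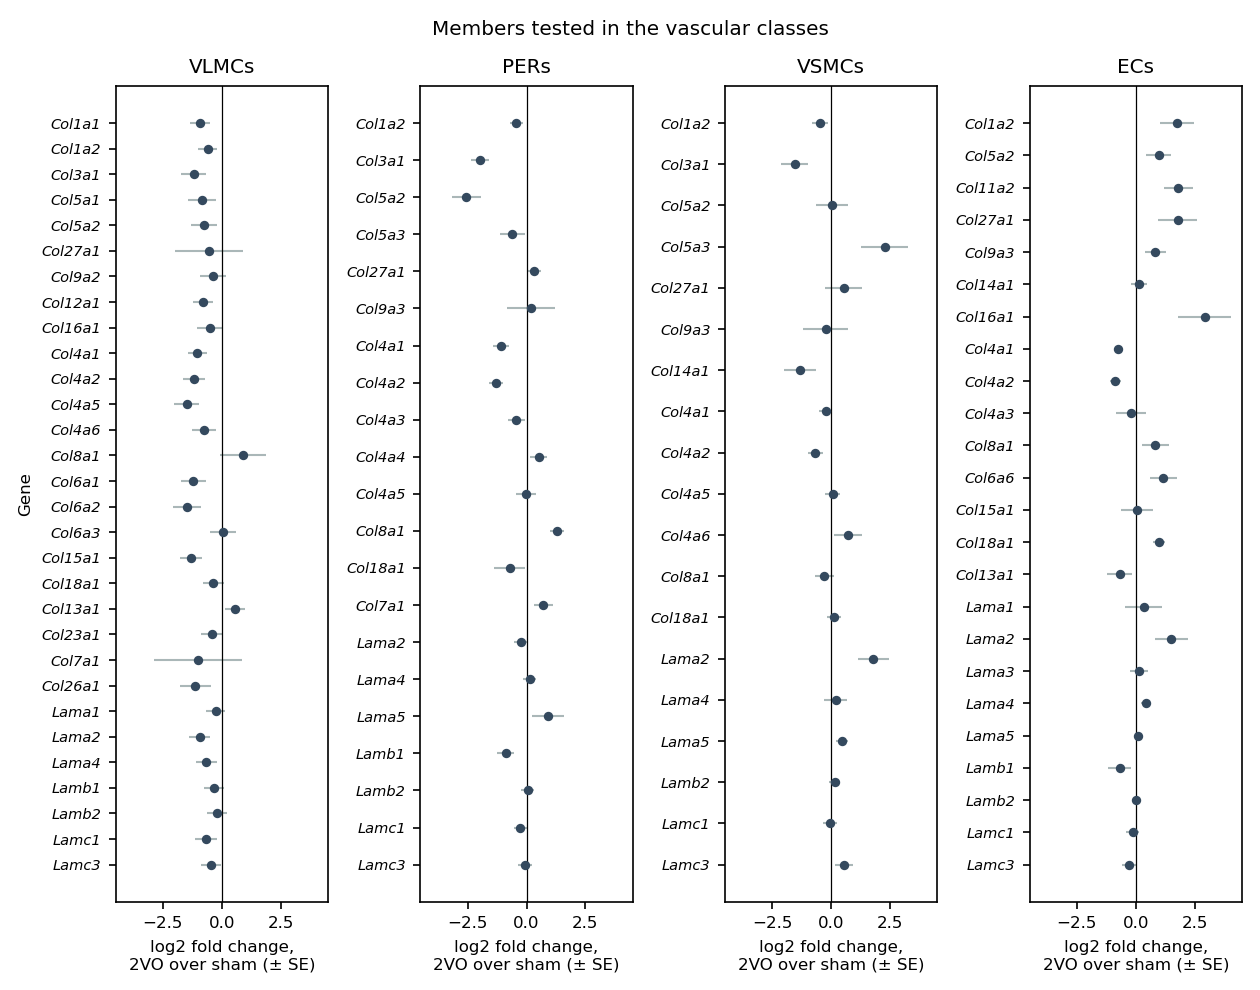
Log2 difference, 2VO over sham, with its SE (horizontal axis) for each member tested in VLMCs, PERs, VSMCs and ECs (rows, by class). Points left of 0 are lower in 2VO 1. In VLMCs 27 of 30 points lie left of 0, and the other classes are spread on both sides.

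Whether an effect differed between classes was tested with library as a block. Between VLMCs and ECs, 17 members were tested and 1 differed at an adjusted p under 0.05, against 1.03% of 4744 genes. Between PERs and ECs, 2 of 16 differed, against 2.24% of 7090 genes. Col1a2 had a difference of effects of -2.42 ± 0.53 on the log2 scale for VLMCs minus ECs and of -2.26 ± 0.57 for PERs minus ECs, and Lama2 one of -1.79 ± 0.48 for PERs minus ECs (SE, adjusted p = 0.025, 0.032 and 0.045, edgeR). In ECs these genes rest on few molecules, 17, 8 and 6 UMIs of Col1a2 in 2VO 1, sham 1 and sham 2 and 23, 4 and 20 of Lama2. For Col4a1 the differences were -0.41 ± 0.37 (VLMCs minus ECs) and -0.41 ± 0.28 (PERs minus ECs), and for Col4a2 -0.46 ± 0.42 and -0.53 ± 0.31, none called. Neither VSMCs against ECs (15 members) nor VLMCs against PERs (16) gave a call, as for all genes (0%), with 1 member each at an unadjusted p under 0.05. DESeq2 was not run on these differences.

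In the other classes 22 of 111 tests were called, 21 higher and 1 lower in 2VO 1, and DESeq2 called 3 of them, Lama4 and Col16a1 in OPCs and Col1a2 in CPECs. In microglia 5 of 14 members were called higher, against 4.22% of 9926 genes. Col4a1 rose to 98.0 CPM in 2VO 1, against 15.4 and 20.7 CPM in sham 1 and sham 2 (log2 difference 2.45 ± 0.33, SE, adjusted p = 0.008, edgeR), and Col4a2 to 46.5 CPM in 2VO 1, against 15.4 and 11.0 CPM in sham 1 and sham 2 (1.79 ± 0.41, 0.042). Lamb2 rose to 47.5 CPM in 2VO 1, against 9.65 and 13.4 CPM in sham 1 and sham 2 (2.05 ± 0.43, adjusted p = 0.031), and Col9a3 to 46.5 CPM in 2VO 1, against 9.65 and 2.43 CPM in sham 1 and sham 2 (2.84 ± 0.60, 0.033). Without sham 1 the Col9a3 difference was 4.16, and without sham 2 it was 2.19. With RLE factors Col4a1 and Lamb2 were called and the other 3 were not. The fifth call, Col3a1, rests on 22 UMIs in 1 cell of 2VO 1 and 0 in both sham libraries. The 8 EC markers summed to 2721, 403 and 600.2 CPM in the same microglia of 2VO 1, sham 1 and sham 2, and the microglial markers to 7802, 16318 and 17781 CPM. A Col4a1 UMI was in 14.2%, 3.26% and 4.90% of microglia and in 6.95%, 0.935% and 1.96% when thinned. Different clusters held most microglia of 2VO 1 and of the sham libraries (371, 79 and 91 cells in 1 cluster, 16, 136 and 113 in another). The part of EC RNA in these rises was not tested.

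OPCs gave the most calls, 12 of 22 members higher and 1 lower, among 12.5% and 16% of 12572 genes. Lama4 rose to 47.5 CPM in 2VO 1, against 11.5 and 11.7 CPM in sham 1 and sham 2 (log2 difference 2.03 ± 0.28, SE, adjusted p = 0.003, edgeR), and Col16a1 to 50.3 CPM in 2VO 1, against 11.5 and 19.2 CPM in sham 1 and sham 2 (1.79 ± 0.32, 0.007). Col11a2, a minor fibrillar chain, rose to 124 CPM in 2VO 1, against 57.5 and 54.6 CPM in sham 1 and sham 2 (1.14 ± 0.21, 0.007), and Col27a1 to 31.7 CPM in 2VO 1, against 10.8 and 13.3 CPM in sham 1 and sham 2 (1.42 ± 0.33, 0.012). The 2VO level was above both sham levels for each of these called genes, and over all genes of OPCs this held for 45.1%. Lamb2 (2.42 ± 0.61, adjusted p = 0.017), Col4a1 (1.26 ± 0.32, 0.017), Col5a3 (1.58 ± 0.41, 0.018) and Lama5 (3.22 ± 0.86, 0.02) rose too. Without sham 1 the Lamb2 difference was 1.52, and without sham 2 it was 3.18. Col9a1 was the 1 gene that fell, to 2.83 CPM in 2VO 1, against 15.3 and 8.75 CPM in sham 1 and sham 2 (-2.14 ± 0.67, adjusted p = 0.035). EC markers summed to 1129, 129 and 394 CPM in OPCs of 2VO 1, sham 1 and sham 2, and OPC markers to 9524, 6724 and 6369 CPM. Most OPCs of 2VO 1 were in 1 cluster (385, 31 and 32 cells) and most sham OPCs in another (62, 551 and 260). The part of either in the calls was not tested.

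In CPECs 2 of 24 members were called, both higher, against 2% of 12823 genes. Col1a2 rose to 29.3 CPM in 2VO 1, against 15.3 and 10.3 CPM in sham 1 and sham 2 (log2 difference 1.16 ± 0.24, SE, adjusted p = 0.007, edgeR). Col4a1 rose to 4.85 CPM in 2VO 1, against 0.852 and 1.98 CPM in sham 1 and sham 2 (1.91 ± 0.53, 0.036), on 44, 20 and 17 UMIs, and its difference was 1.27 without sham 1 and 2.44 without sham 2. With RLE factors Col1a2 alone was called. The main CPEC collagens were not among the calls: Col9a3 differed by 0.19 ± 0.21 and Col8a1 by 0.27 ± 0.22. In OLGs 2 of 21 were called, both higher, against 2.18% of 12616 genes, and neither call held with RLE factors (adjusted p = 0.051 for each, edgeR), with cells of at least 200 genes, with members allowed among the clustering genes or with DESeq2. Lama2 rose to 51.5 CPM in 2VO 1, against 20.9 and 25.3 CPM in sham 1 and sham 2 (1.16 ± 0.22, adjusted p = 0.046), and Lama4 to 6.27 CPM in 2VO 1, against 0.561 and 0.668 CPM in sham 1 and sham 2 (3.35 ± 0.65, 0.047), on 18, 11 and 6 UMIs. EC markers summed to 205, 80.3 and 129 CPM in CPECs and to 800.5, 67.7 and 285 CPM in OLGs of 2VO 1, sham 1 and sham 2, and most OLGs of 2VO 1 lay in 1 cluster (665, 80 and 260 cells). ASTs (15 members, 0.047% of all genes called), neural precursors (6, 11.5%), GLUTNs (5, 1.62%) and Cajal-Retzius neurons (4, 0.897%) gave 0 calls by edgeR, with 3, 1, 2 and 1 members at an unadjusted p under 0.05, and DESeq2 called 0 in these. In macrophages 0 members passed the filter, and EPNs were not tested because 2VO 1 held 9 of them.

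Genes that process, bind or cut the matrix were described from 5 lists. In ECs, 6 of their 67 tested genes were called, all higher, beside 2.38% of all genes. Adamts4, a protease that cuts proteoglycans, differed by 4.23 ± 0.69 (adjusted p = 0.022), and the metalloprotease inhibitors Timp1 by 3.29 ± 0.58 (adjusted p = 0.028) and Timp2 by 1.64 ± 0.22 (adjusted p = 0.011) (log2 ± SE, edgeR). These are 3 of 11 proteases and inhibitors. Of 14 other matrix partners, Fbln5, a protein of elastic fibres, differed by 1.58 ± 0.25 (adjusted p = 0.02). Of 10 receptors, the collagen receptor Ddr1 differed by 2.34 ± 0.41 (adjusted p = 0.028) and the laminin receptor chain Itgb4 by 1.99 ± 0.40 (adjusted p = 0.045). None of 19 collagen processing genes and none of 13 TGF-beta genes was called in ECs by edgeR, with 1 and 4 at an unadjusted p under 0.05. Within EC types, 4 higher and 1 lower of 50 list genes were called in arterial-like ECs, 2 and 0 of 48 in capillary-like and 2 and 1 of 37 in venous-like. In fenestrated-like ECs 1 of 23 was called, higher, and in ECs left without a type 0 of 53. The part of the mix of EC types in the EC calls was not tested, and no DESeq2 values are given for the lists. In VLMCs 1 of 56 was called, beside 0.937% of all genes, Adamts1, a protease of the same family as Adamts4, at 1.93 ± 0.38 (adjusted p = 0.015). In PERs 0 of 57 and in VSMCs 0 of 61 were called by edgeR, with 5 and 12 at an unadjusted p under 0.05. Outside the vessels, 20 higher and 1 lower of 64 were called in OPCs, 10 and 1 of 45 in microglia, 5 and 1 of 70 in CPECs and 4 and 1 of 59 in OLGs. Of all genes, 28.5%, 6.75%, 7.28% and 8.54% were called in either direction in these classes. Whether the lists went beyond these shares was not tested. In neural precursors 6 of 23 were called, in macrophages 4 of 16 and in GLUTNs 1 of 25, all higher, beside 11.5%, 5.93% and 1.62% of all genes. ASTs (55 tested) and Cajal-Retzius neurons (16) gave 0 calls by edgeR, with 10 and 4 at an unadjusted p under 0.05.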

How the data were processed

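Of the 4 hippocampal libraries in the series, 2VO 1, sham 1 and sham 2 were used, while the library 2VO 2 was not analysed here. The authors deposited UMI counts per gene and barcode. The submitters' processing notes name Cell Ranger, Seurat 3.2.2 and mm10, and the methods state alignment to GRCm38. Equalisation of depth between libraries, the calling of cells and the use of strand are not given in the sources used here. That the counts are raw was read from the values, as all are whole and the library totals differ. Columns of other samples not used numbered 0.

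Cells with at least 650 genes were kept. Counts per cell were scaled to 10000 and logged, and 2000 variable genes without the members (0 among them), 30 principal components, 15 neighbours and Leiden clustering at resolution 1.0 gave the clusters (Python 3.11.15, scanpy 1.11.5, leidenalg 0.10.2), named from marker lists. Scanpy's scrublet marked 117, 102 and 132 cells of 2VO 1, sham 1 and sham 2 as doublets. Its automatic threshold failed in 2VO 1, under 0.5% of cells, so 0.2156, the mean of the other thresholds, was used there. Marked cells stayed in except in an alternative. Counts were summed per library and class with at least 10 cells in each library and tested with the quasi-likelihood test of edgeR 4.0.16 in R 4.3.3 (TMM factors, filterByExpr, Benjamini-Hochberg adjustment over all genes of a class). SE is the log2 difference divided by the root of F. The test draws the spread of each gene towards that of all genes of the class. Median total degrees of freedom were 8.47 in ECs, but 9558 in capillary-like ECs, 6628 in venous-like ECs and 8012 in GLUTNs. In these last classes p holds almost no spread of the single gene between mice. The difference between classes was tested as an interaction with library as a block. DESeq2 1.42.0 was an alternative. For shares of cells, 188 cells under 1000 UMIs were dropped before thinning, and intervals are exact at 95%. The scripts were tested on simulated data.

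Named genes were, in VLMCs, PERs, VSMCs and ECs, the 8 tested members with the most counts and every call, in other classes and in groups of ECs the calls, at most 8 by smallest p, in matrix lists at most 3 calls by smallest p, and for levels any member. Values of 1 member are not reported here. The members and lists were chosen with earlier results of these data known. Gene positions are from GENCODE vM21 on GRCm38, and promoter windows from RefSeq on GRCm38.p6.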

Additional observations from a re-analysis of the deposited data

Results flagged for a closer look

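The difference of the 2VO effect between 2 classes, tested as an interaction with edgeR over all genes found in both, passed an adjusted p under 0.05 for 3 values. Col1a2 had a difference of -2.42 ± 0.53 on the log2 scale (SE, adjusted p = 0.025) for VLMCs minus ECs and of -2.26 ± 0.57 (adjusted p = 0.032) for PERs minus ECs. Lama2, a laminin alpha chain of pericytes and fibroblasts, had -1.79 ± 0.48 (adjusted p = 0.045) for PERs minus ECs. Under RLE factors both PER values had an adjusted p above 0.05 (0.059 and 0.082). Col1a2 is a gene of VLMCs and PERs, and in ECs of 2VO 1, sham 1 and sham 2 it had 17, 8 and 6 UMIs. VLMC markers summed to 17.8, 2.98 and 8.51 CPM in the ECs of these libraries and PER markers to 110.0, 209 and 651 CPM, and their part in the differences was not tested.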

How the results depend on the processing

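The 2VO comparison was rerun with DESeq2, with RLE factors, without a filter on low counts, with cells of at least 200 genes, with marked doublets removed, with clusters at resolution 2.0 and with members allowed among the variable genes. The count of members called changed from 0 to 1 in VLMCs at resolution 2.0, beside 2.03% of all genes. In PERs it changed from 0 to 3 without the filter (1.78% of all genes called) and 6 without doublets (9.31%). It was 1 in PERs at resolution 2.0, where 43 genes were called higher and 7 lower of 7301. In ECs it changed from 0 to 3 without the filter, beside 7.79% of all genes. In VSMCs it was 0 under each. Of the 22 calls in other classes, the count was 37 without the filter, 3 with DESeq2, 13 with at least 200 genes, 16 with RLE factors, 28 without doublets, 21 at resolution 2.0 and 20 with members allowed. With RLE factors it was 2 in microglia, against 5, and 0 in OLGs, against 2. The calls over all genes moved as well. In microglia 419 genes were called higher and 251 lower of 9926, 1222 and 803 of 9810 without doublets and 21 and 13 with DESeq2. In OPCs they were 1572 and 2011 of 12572, and 238 and 882 with DESeq2. In OLGs they were 275 and 802 of 12616, 1136 and 2365 of 18093 without the filter, and 0 with RLE factors. In arterial-like ECs, which held the 3 calls in groups of ECs, the count was 0 with DESeq2, 1 with at least 200 genes and 0 without doublets. It was 1 at resolution 2.0 and 1 with members allowed. There 1 was higher and 1 lower with RLE factors (88 and 29 of 8695 genes) and without the filter (119 and 53 of 14656). In ECs left without a type, 1 was higher with at least 200 genes (441 and 181 of 10649 genes higher and lower). There 1 was higher at resolution 2.0 (395 and 141 of 10267) and 1 lower without the filter (294 and 129 of 16229). The 3 differences between classes became 1 with RLE factors, beside 1.14% of all genes for VLMCs minus ECs and 1.68% for PERs minus ECs. They became 6 without the filter, beside 0.871%, 1.65% and 0.952% of all genes for VLMCs, PERs and VSMCs minus ECs. The median log2 difference of members in PERs was -0.24, and -0.022 at resolution 2.0 and 0.19 with the unnamed cluster of PER and EC markers added, a choice made after seeing the data. In ECs it was 0.23, and 0.88 without the filter.

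Leaving out 1 sham library, which leaves values with no test, gave medians over the members that had passed the filter of -0.99 to -0.61 in VLMCs, -0.43 to -0.33 in PERs, -0.03 to 0.14 in VSMCs and 0.24 to 0.47 in ECs. Over every member with a count they were -0.84 to -0.60 in VLMCs, -0.46 to 0.04 in PERs, 0.01 to 0.18 in VSMCs and 0.82 to 1.10 in ECs, so the PER median, -0.42 over every member, was above 0 without sham 2. Of single-gene values under the alternatives, 411 kept direction and side of the threshold, 36 kept direction and lost a call, 6 gained one, 9 moved by more than the spread and 14 turned round, none of the 14 a call. With the unnamed cluster added to PERs, Col1a2 became 0.089, Lama2 0.35, Lamc1 0.11 and Lamc3 0.38. Without doublets, Lama4 and Lamb2 in PERs became -0.042 and -0.10, and Col4a5 in VSMCs -0.045. Without the filter, Lamb2 became -0.025 in PERs and -0.036 in ECs. With at least 200 genes, Lamb2 and Lamc3 in PERs became -0.036 and 0.13, Lamc1 in VSMCs 0.10 and Lamb2 in ECs -0.010. At resolution 2.0 Lamc1 in ECs became 0.010. The cause of these changes was not tested.

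No paired analysis was possible because the 2VO and sham libraries with counts share only 1 replicate number. The main limits are the single 2VO library, its lower depth (a median of 2311 UMIs per cell, against 8191 and 5249), and its 32 VLMCs. Whether surgery or another property of that library sets a difference cannot be told apart. Markers of ECs and OLGs were counted in the sums of other classes, at levels that differed between libraries, and their part in the results was not tested. Cell classes were rebuilt, so their borders can differ from those of the study.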
